A study of Mus musculus with 15 samples.

Results

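Rab proteins are the largest family of small GTPases. Each cycles between an active, GTP-bound form on a membrane and an inactive, GDP-bound form in the cytosol, and in the active form recruits the effectors that move, tether and fuse one kind of vesicle. Exchange factors switch a Rab on, GTPase activating proteins switch it off, and a GDP dissociation inhibitor takes it off the membrane. In macrophages such as microglia, the resident macrophages of the brain, a phagosome first carries Rab5 and then exchanges it for Rab7 before it fuses with lysosomes.

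Rab genes were followed in RNA-seq of microglia sorted from mouse brain. The members were all rows of the deposited expression table whose symbol is Rab, a number and at most 1 letter or 1 letter and 1 digit, which leaves out Rab11fip genes. This gave 41 genes of 13834 in the table. The rule used symbols alone, not levels, but this family was chosen with earlier results of these data known. GENCODE M21, a mouse gene annotation of build GRCm38, holds 59 such symbols; the other 18, among them Rab3a, Rab13, Rab38 and Rab39b, were not analysed here.

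The 15 libraries fall into 4 groups. AF-high (n = 5) and AF-low (n = 3) are microglia of high and of low autofluorescence, the light that cells give off without a dye, from untreated mice aged 18 months. The young group (n = 3) is microglia of untreated mice aged 3 months. The PLX5622 group (n = 4) is microglia of mice aged 18 months treated with PLX5622, which blocks the CSF1 receptor and is used to deplete microglia. The study asks about a state of microglia in old age and its reversal. The sources used here do not give strain, sex, sort markers, the dose and schedule of the compound, or the autofluorescence of the sorted young and PLX5622 cells. Replicates are labelled as biological, but whether each is 1 mouse or a pool is not stated, so p-values speak only of the spread between libraries. Whether AF-high and AF-low libraries share mice is not stated either, and all libraries were tested as independent.

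Levels are in TPM, the abundance of transcripts per unit of length, brought to nearly the same total for every library, so levels of different genes can be set side by side. Differences are of log2(TPM + 1) ± SE from limma. A gene was called where its p, adjusted by Benjamini-Hochberg over all 13175 genes tested, was under 0.05. On this scale the change of low genes is understated. The read depth of the libraries is unknown.

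All 13 microglia markers on a list of general knowledge were in the table and summed to 7677 to 13570 TPM per library. All 9 markers of border-associated macrophages, which live in the meninges and around vessels, were also measured. Choroid plexus and ependyma markers (4 of 7 in the table) summed to 8745 TPM in young 1 and 5764 in young 2, and to between 31.6 and 368.2 elsewhere. Libraries deviated from their group means (root mean square over genes, log2) by 0.228 to 0.264 in the young and PLX5622 groups, but by 0.364 to 0.56 in AF-high and 0.392 to 0.472 in AF-low. Mitochondrial genes made up 5.38% of AF-high 2 and 7.66% of AF-high 3, and at most 2.7% of every other library.

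Of the 39 members tested, Rab7 and Rab11b passed the test, each in 1 of the 6 comparisons. Rab7, which directs late endosomes and phagosomes to fuse with lysosomes, was lower in PLX5622 than in AF-high microglia. Rab11b, a Rab of recycling endosomes, was lower in PLX5622 than in AF-low microglia. Rab5c, an early endosomal Rab, and Rab6a, a Golgi Rab, were also lowest in all PLX5622 libraries but did not pass the test. Rab11a, the close relative of Rab11b, had its lowest mean in AF-high. The bases just upstream of Rab7, Rab5c, Rab11b and Rab11a are printed here. They are RefSeq windows of build GRCm38.p6, read 5′ to 3′ on the gene's strand and ending at the last base before the GENCODE gene. Capitals mark matches to a GC box (GGGCGG) or an ETS motif (CCGGAAGT) on either strand.
Rab7, chr6:88045271-88045520, minus strand: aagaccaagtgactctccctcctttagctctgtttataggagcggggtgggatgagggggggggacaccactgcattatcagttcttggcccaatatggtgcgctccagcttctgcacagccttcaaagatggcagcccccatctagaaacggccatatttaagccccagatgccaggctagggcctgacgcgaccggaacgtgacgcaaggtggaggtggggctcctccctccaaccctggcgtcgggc
Rab5c, chr11:100738216-100738465, minus strand: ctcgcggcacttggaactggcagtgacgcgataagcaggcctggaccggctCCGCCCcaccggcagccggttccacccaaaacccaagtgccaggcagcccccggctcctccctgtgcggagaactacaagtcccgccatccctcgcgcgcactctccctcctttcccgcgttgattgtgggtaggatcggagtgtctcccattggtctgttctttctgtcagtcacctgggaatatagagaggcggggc
Rab11b, chr17:33760531-33760736, minus strand: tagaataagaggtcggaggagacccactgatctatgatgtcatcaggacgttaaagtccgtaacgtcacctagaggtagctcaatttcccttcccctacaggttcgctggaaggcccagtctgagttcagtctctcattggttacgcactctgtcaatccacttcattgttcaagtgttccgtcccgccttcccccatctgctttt
Rab11a, chr9:64737759-64738006, minus strand: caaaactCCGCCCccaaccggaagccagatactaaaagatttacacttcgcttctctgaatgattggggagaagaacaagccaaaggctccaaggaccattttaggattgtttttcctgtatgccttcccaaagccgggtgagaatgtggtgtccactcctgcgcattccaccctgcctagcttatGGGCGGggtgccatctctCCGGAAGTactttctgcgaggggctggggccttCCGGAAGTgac

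These motifs and 3 others were looked for on both strands in windows of 250 bases upstream of the start, of which 42 belonged to 35 of the 41 members. Windows on chromosome 18, where Rab18 and Rab27b lie, were left out for members but not for all genes. A GC box, the site of Sp1-like factors, was found for 28 of the 35 genes. A gene with several windows counted once if any had it. By window, 31 of the 42 held a GC box, against 32.7% of 32851 windows of all genes. Some windows of 1 gene overlap, as for Rab43. Member windows held 44% to 80.8% G and C. The windows of all genes were not matched to them in base content or expression, and the part of either was not tested. The window printed for Rab7 held none, but another RefSeq window of Rab7, not printed because it lies inside the GENCODE gene, held 2, so Rab7 is among the 28. The window of Rab5c held 1. Rab11a held 2 GC boxes and 2 ETS motifs, and Rab24, a Rab linked to autophagy, was the other member with the ETS motif, which 2.88% of all windows had. An E-box (CACGTG) was found for Rab5a, Rab20, Rab21, Rab23 and Rab27a and in 6.02% of all windows. An AP-1 motif (TGANTCA) was found for Rab34 alone and in 6.75% of all windows, and a PU.1 motif (GAGGAAGT), named for a macrophage factor, for Rab2b and Rab32 and in 2.44%. Of the 42 member windows, 5 held an E-box, 1 an AP-1 motif, 2 a PU.1 motif and 2 the ETS motif. A motif match is a description of letters and not of binding.

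The members spanned a wide range of levels. Averaged over all 15 libraries, Rab7 was the most abundant at 463.9 TPM, followed by Rab1a at 419.2 and Rab11a at 324.4. Rab34 (285.0), Rab14 (196.3), Rab11b and Rab4b (154.5) came next. At the other end, Rab30, a Golgi Rab, averaged 0.4274 TPM and Rab27b, a secretory Rab, 0.753 TPM. These were the 2 members that did not reach 1 TPM in 3 libraries, so 39 members were tested. The late endosomal and lysosomal members ran from 6.606 to 463.9 TPM, the recycling and plasma membrane members from 1.741 to 324.4, and the endoplasmic reticulum and Golgi members from 0.4274 to 419.2. The 7 early endosomal and phagosomal members lay between 7.152 and 91.54 TPM. Regulated secretion (0.753 to 25.47) and the ciliary and other members (3.043 to 21.72) were low throughout.

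**Figure D1:**
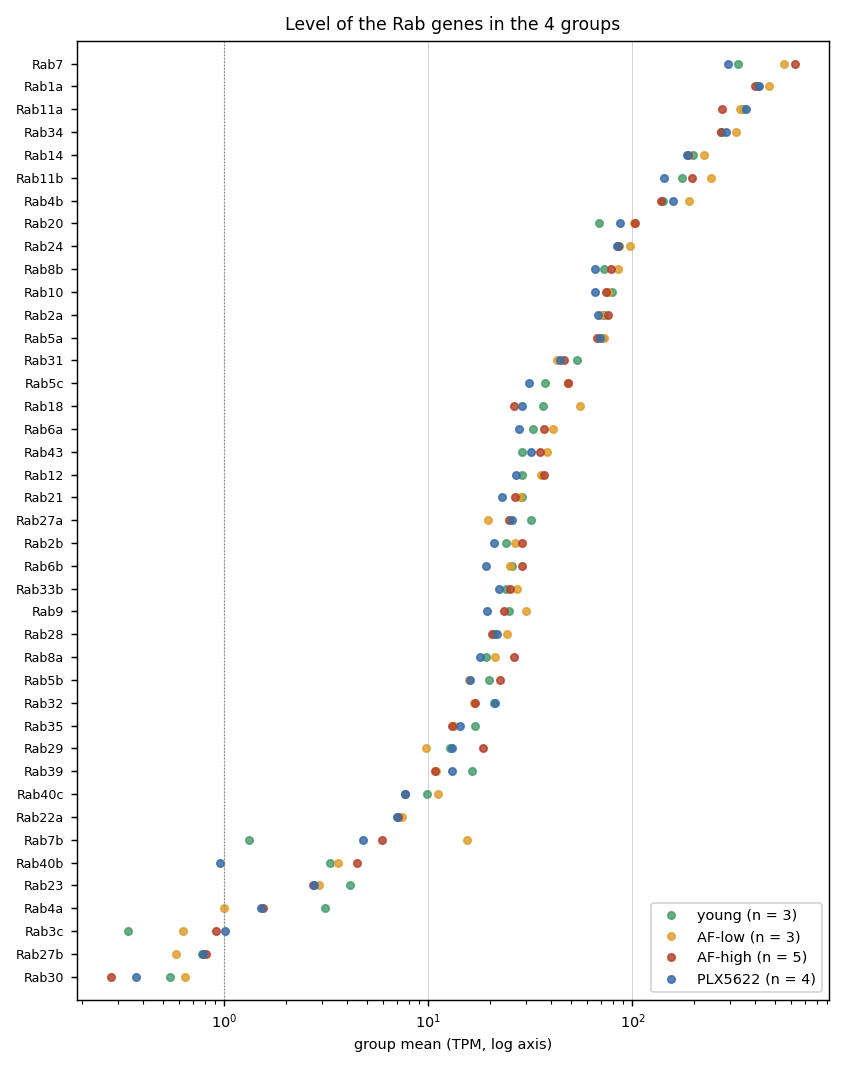
Mean TPM of each of the 41 Rab members in each of the 4 groups, on a log axis, ordered by mean TPM over the 15 libraries. The points are group means. Rab7, Rab1a and Rab11a lie highest and Rab30 and Rab27b lowest, and the group means of Rab7 range from 293.4 to 627 TPM.

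All 41 members together summed to 3122 ± 138 TPM (SD, n = 5) in AF-high, 3409 ± 404 (n = 3) in AF-low, 2859 ± 131 (n = 3) in young and 2749 ± 105 (n = 4) in PLX5622 microglia. Every AF-high library (2971 to 3315) and every AF-low library (2961 to 3744) lay above every young (2708 to 2945) and every PLX5622 library (2619 to 2863). Without Rab7, the AF-high (2495 ± 106), young (2530 ± 100) and PLX5622 (2456 ± 83.4) means were within 1 SD of each other, and AF-low stood at 2855 ± 291. Rab7 made up 9.93% to 11.7% of the Rab sum in PLX5622 and 10.7% to 12.5% in young libraries, but 14.2% to 25.4% in AF-high and 13.5% to 18.8% in AF-low. By role, the late endosomal and lysosomal members summed to 1084 ± 132 TPM in AF-high and to 1079 ± 188 TPM in AF-low, against 774.7 ± 43 in young and 750.4 ± 21.1 in PLX5622. The early endosomal members summed to 321 ± 33.5, 317.2 ± 7.29, 286.5 ± 21 and 276.9 ± 19 TPM in the same order. These sums are descriptions, with no test.

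**Figure D2:**
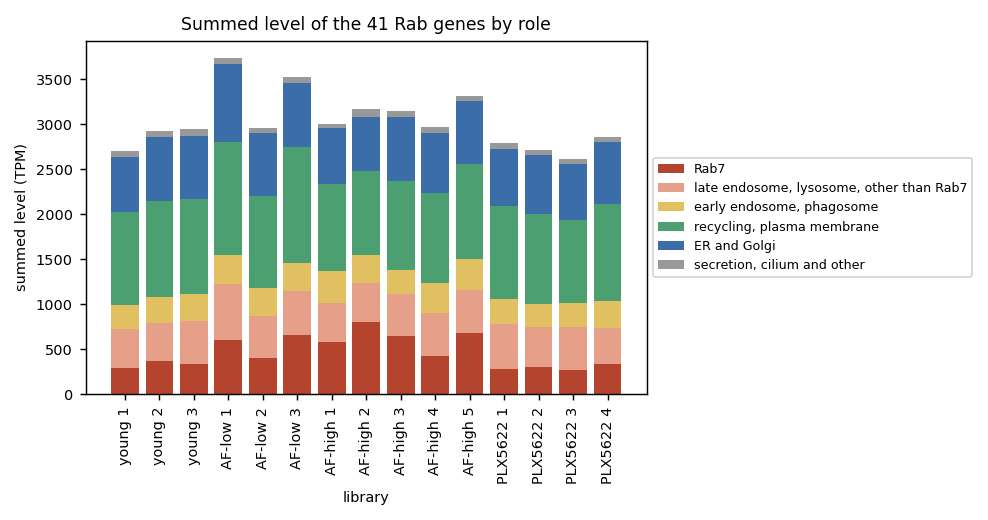
Summed TPM of the Rab members in each of the 15 libraries, stacked by role with Rab7 drawn apart. The Rab7 block is larger in the AF-high and AF-low libraries, where it makes up 13.5% to 25.4% of the sum, than in the young and PLX5622 libraries, where it makes up 9.93% to 12.5%.

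Among late endosomal and lysosomal members, Rab7 (chr6:87999106-88045270, minus strand, protein coding) stood at 580.7, 804.1, 649.5, 423.1 and 677.5 TPM in the 5 AF-high libraries. The AF-low libraries held 601.6, 400.8 and 660.7 TPM and the young ones 289.8, 364.8 and 332.3. The 4 PLX5622 libraries held 277.6, 295.7, 265.9 and 334.3 TPM. Every AF-high and AF-low library was above every young and PLX5622 library, AF-high and AF-low overlapped, and so did young and PLX5622. The means were 627 ± 139.8 (SD, n = 5), 554.3 ± 136.3 (n = 3), 328.9 ± 37.64 (n = 3) and 293.4 ± 29.93 TPM (n = 4).

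Rab7 fell by 1.07 ± 0.18 on the log2 scale in PLX5622 against AF-high microglia (adjusted p = 0.0231), in 4 of 4 libraries below the lowest AF-high one. No other of the 39 members was called in this comparison, in which 0.63% of all genes were called (0.471% lower). The difference was -0.89 ± 0.2 against AF-low (adjusted p = 0.0919) and passed the test without AF-low 2 (-1.11, 0.0214). Against young, it was 0.9 ± 0.2 for AF-high (adjusted p = 0.121), 0.73 ± 0.22 for AF-low (0.213) and -0.16 ± 0.2 for PLX5622 (0.979), and AF-high minus AF-low was 0.18 ± 0.2 (0.836). The call against AF-high was lost without any 1 of the PLX5622 libraries, with adjusted p of 0.0945, 0.0698, 0.105 and 0.053 without PLX5622 1 to 4, and with young 1 and young 2 left out together (0.0622). It was also lost with the 2 groups alone (0.059) and with the replicate number as a block (0.104). Without AF-low 1, AF-high 2 and AF-high 3, and so without both libraries of high mitochondrial share, the difference was -0.91 ± 0.19 (adjusted p = 0.0393).

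The markers of border-associated macrophages were, like Rab7, higher in AF-high and AF-low than in young and PLX5622 libraries. All 9 of 9 were in the table, none was at 0, and their sum lay between 173.8 and 224.4 TPM in PLX5622 and between 236 and 302.2 in young libraries, and reached 313.1 to 444.9 in AF-high and 455.4 to 590.6 in AF-low. Unlike Rab7, the sum did not overlap between AF-high and AF-low or between young and PLX5622. Rab5c and Rab11b, too, had higher means in AF-high and AF-low than in young and PLX5622 libraries, and the part of these cells in the results was not tested. In bulk RNA, fewer cells of a type and less RNA per cell cannot be told apart. Of the 31-base stretches of Rab7 transcripts, 16.3% also occur in transcripts of other genes, mostly the pseudogene Rab7-ps1, and for Rab11b 10.9% do, mostly in Rab11b-ps2; how reads were divided between them is not known.

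**Figure D3:**
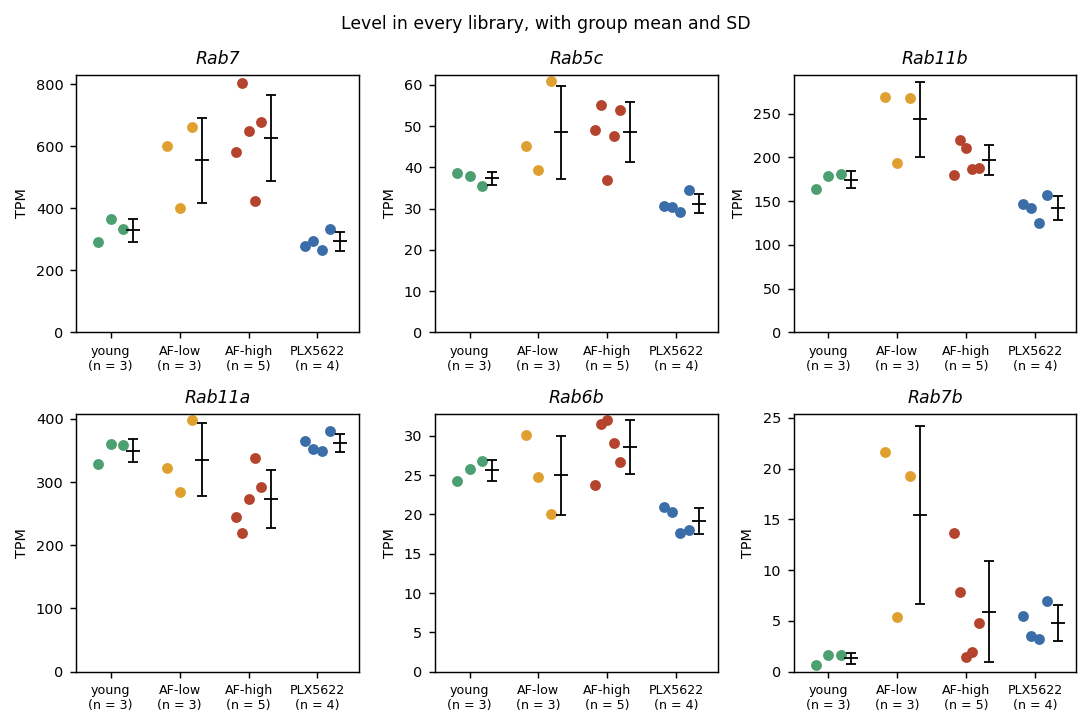
TPM of Rab7, Rab5c, Rab11b, Rab11a, Rab6b and Rab7b in each library by group. Points are libraries, dashes are group means and bars are the SD. Rab7 lies at 400.8 TPM or above in all AF-high and AF-low libraries and at 364.8 or below in all young and PLX5622 libraries.

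Rab7b, despite its name a separate gene that acts between late endosomes and the Golgi, was far lower and scattered widely. Its levels were 13.62, 7.842, 1.468, 1.908 and 4.784 TPM in the AF-high libraries, 21.63, 5.362 and 19.3 in AF-low, 0.6976, 1.644 and 1.642 in young and 5.517, 3.508, 3.249 and 6.93 in PLX5622 libraries. All AF-low and all PLX5622 libraries lay above all young ones, and AF-high overlapped every other group. The difference of AF-low from young was 2.65 ± 0.6 (adjusted p = 0.119), that of AF-high from young 1.29 ± 0.54 (0.395) and that of PLX5622 from young 1.3 ± 0.56 (0.934). With AF-low 2 left out, Rab7b, Rab7 and Rab11b passed the test as higher in AF-low than in young, a setting in which 182 of all genes tested (1.38%) were called, against 6 with every library.

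Rab34, which takes part in the positioning of lysosomes and in macropinosomes, was the second most abundant member of this role. It averaged 270.3 ± 24.06 TPM in AF-high, 320.1 ± 75.93 in AF-low, 270.9 ± 28.8 in young and 287.7 ± 60.48 in PLX5622. Its libraries overlapped between all groups, from 216.6 TPM in PLX5622 4 to 396.5 in AF-low 1. Rab29, a partner of the kinase Lrrk2 at the Golgi and lysosomes, stood at 14.59, 18.32, 29.99, 18.65 and 11.39 TPM in AF-high and at 4.312, 13.59 and 11.23 in AF-low. The young libraries held 12.36 to 13.4 TPM and the PLX5622 libraries 9.55 to 14.96. AF-high and AF-low overlapped, and their difference was 0.93 ± 0.32 (adjusted p = 0.479).

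Of the other late endosomal members, Rab24 averaged 84.19 to 96.73 TPM over the groups. Rab12, linked to lysosomal degradation of the transferrin receptor, averaged 36.97 ± 6.731 TPM in AF-high and 26.82 ± 7.563 in PLX5622 (difference -0.47 ± 0.21, adjusted p = 0.29). Rab9, which returns mannose 6-phosphate receptors to the Golgi, averaged 23.37 ± 8.53 TPM in AF-high and 19.43 ± 4.024 in PLX5622. Rab32, a Rab of lysosome-related organelles, averaged 16.76 to 21.1 TPM over the groups. In PLX5622 against AF-high, 1 of the 8 members of this role was called lower (0.471% of all genes), none was called higher, and the median difference was -0.09, against -0.02 over all genes tested.

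Among early endosomal and phagosomal members, Rab5c (chr11:100715009-100738215, minus strand, protein coding) stood at 49.18, 55.19, 36.96, 47.63 and 53.83 TPM in AF-high and at 45.23, 39.27 and 60.92 in AF-low libraries. Young libraries held 38.65, 37.85 and 35.61 TPM and PLX5622 libraries 30.53, 30.45, 29.29 and 34.49. All PLX5622 libraries were below all others, all AF-low ones were above all young ones, and AF-high overlapped young only through AF-high 3. PLX5622 minus AF-high was -0.61 ± 0.15 (adjusted p = 0.0684) and PLX5622 minus AF-low -0.6 ± 0.17 (0.142), neither of which passed the test. AF-high minus young was 0.36 ± 0.16 (0.445). The difference from AF-high passed with AF-high 3 left out (adjusted p = 0.0352) and that from AF-low with AF-low 2 left out (0.0448).

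The 3 genes for Rab5 proteins did not share this order. Rab5a stood at 67.23 ± 8.609 TPM in AF-high, 72.64 ± 13.51 in AF-low, 71.34 ± 12.63 in young and 69.02 ± 6.837 in PLX5622, with all groups overlapping. Rab5b averaged 15.87 to 22.37 TPM. Rab5c made up 35.24% ± 5.29 of the Rab5 sum in AF-high, 35.3% ± 5.13 in AF-low, 29.23% ± 3.5 in young and 26.85% ± 0.823 in PLX5622. The level of Rab7 was 4.534 ± 0.894 times the summed Rab5 level in AF-high and 4.007 ± 0.442 times in AF-low. It was 2.56 ± 0.235 times in young and 2.522 ± 0.136 times in PLX5622, and every library of those groups (2.34 to 2.83) lay below every AF-high and AF-low library (3 to 5.31).

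Rab20, a Rab of maturing phagosomes and the most abundant of this role, stood at 156.6, 89.7, 50.9, 106.9 and 110.4 TPM in AF-high and at 101.4, 118.8 and 85.92 in AF-low. Young libraries held 66.41, 72.06 and 67.21 TPM and PLX5622 libraries 90.91, 79.47, 79.89 and 96.67. The young libraries lay below all AF-low and all PLX5622 ones, and AF-high covered the whole range. Rab31, a Rab between the Golgi and endosomes, averaged 42.79 to 53.59 TPM, Rab21, known from integrin uptake, 22.96 to 28.76 and Rab22a 7.044 to 7.445. None of the 7 members of this role was called in any comparison.

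Among recycling and plasma membrane members, Rab11b (chr17:33742484-33760530, minus strand, protein coding) stood at 179.4, 219.4, 210.6, 187.1 and 187.6 TPM in AF-high, and the AF-low libraries held 268.7, 194 and 268.3. Young libraries held 164.2, 179.3 and 180.8 TPM and PLX5622 libraries 146.5, 141.9, 124.5 and 157. All PLX5622 libraries lay below all others, all AF-low ones above all young ones, and AF-high overlapped AF-low and, by its lowest library, young. The means were 196.8 ± 17.17, 243.7 ± 43.04, 174.7 ± 9.185 and 142.5 ± 13.54 TPM.

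Rab11b fell by 0.76 ± 0.14 on the log2 scale in PLX5622 against AF-low microglia (adjusted p = 0.0434), in 4 of 4 libraries below the lowest AF-low one. No other of the 39 members was called in this comparison, in which 0.144% of all genes were called, all of them lower. The difference was -0.46 ± 0.12 from AF-high (adjusted p = 0.0804) and -0.3 ± 0.14 from young (0.948), and AF-low minus young was 0.46 ± 0.15 (0.231). The call was lost with the libraries centred on their median log ratio (adjusted p = 0.0663) and with quantile normalization (-0.55 ± 0.12, 0.115). It was also lost without AF-low 1 (0.18), AF-low 3 (0.137), AF-high 4 (0.0531) or AF-high 5 (0.0671) and without any 1 young or PLX5622 library, over a range of 0.0689 to 0.218.

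Rab11a (chr9:64715299-64737758, minus strand, protein coding) had the other order. It stood at 244.8, 218.7, 273.1, 337.9 and 291.4 TPM in AF-high and at 322.2, 285 and 398.9 in AF-low, with 328.2, 360.6 and 359 in young and 364.5, 352.4, 348.7 and 380.5 in PLX5622 libraries. All PLX5622 libraries lay above all AF-high ones, and 1 AF-high library, AF-high 4, reached into the young range. PLX5622 minus AF-high was 0.42 ± 0.13 (adjusted p = 0.136) and AF-high minus young -0.37 ± 0.14 (0.355). The level of Rab11a over that of Rab11b was 2.42 to 2.8 in PLX5622 and 1.99 to 2.01 in young libraries, but 0.997 to 1.81 in AF-high and 1.2 to 1.49 in AF-low. The ratios of young and PLX5622 libraries overlapped neither each other nor those of AF-high and AF-low.

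Rab14, which acts between the Golgi and endosomes, held 209.9, 172.5, 184.1, 174 and 198.4 TPM in the AF-high libraries, 244.2, 198.4 and 227.3 in AF-low, 178.6, 216.7 and 198.3 in young and 180.3, 179.2, 184.8 and 198.4 in PLX5622 libraries. AF-low was highest on average at 223.3 ± 23.18 TPM, and each group overlapped at least 1 other. Rab4b, a Rab of fast recycling, stood at 132.6, 150, 124.9, 130.4 and 155.2 TPM in AF-high and at 203.5, 167.8 and 193.7 in AF-low, with no overlap. The difference was -0.44 ± 0.17 (adjusted p = 0.518), and young (110.8 to 181.7) and PLX5622 (117.9 to 182.5) libraries overlapped both. Of its 31-base stretches, 62.6% occur in another gene's transcripts, mostly the readthrough gene Gm21983, so its level is uncertain.

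Rab4a, its relative, was near the limit of the test at 2.434, 0.8693, 1.746, 0.8883 and 1.8 TPM in AF-high and 0.2438, 0.7442 and 2 in AF-low. Young libraries held 3.252, 3.532 and 2.559 TPM, above all others, and PLX5622 libraries 1.728, 1.265, 0.9481 and 2.102. The difference from young was -1.13 ± 0.32 for AF-low (adjusted p = 0.2), -0.72 ± 0.29 for AF-high (0.362) and -0.73 ± 0.3 for PLX5622 (0.899). Choroid plexus markers were high in young 1 and young 2, and their part in this order was not tested. The exocytic and plasma membrane members Rab8a, Rab8b, Rab10 and Rab35 averaged 17.83 to 26.33, 65.2 to 84.9, 65.7 to 79.58 and 13 to 16.88 TPM over the groups, and none was called in any comparison.

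Among endoplasmic reticulum and Golgi members, Rab1a, which carries cargo from the endoplasmic reticulum to the Golgi, held 398, 313.2, 421.8, 411 and 440.6 TPM in AF-high and 495.2, 442.1 and 469.7 in AF-low libraries. Young libraries held 368, 432.4 and 431 TPM and PLX5622 libraries 408.1, 412.3, 398.9 and 445.9. AF-low lay just above AF-high without overlap, and the other groups overlapped AF-high. Rab2a, a Golgi and endosomal Rab, averaged 67.6 to 75.64 TPM with all groups overlapping.

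Rab6b, a Rab of transport back to the Golgi, stood at 23.69, 31.53, 31.98, 29.13 and 26.71 TPM in the AF-high libraries, 30.11, 24.81 and 20.08 in AF-low, 24.25, 25.73 and 26.81 in young and 20.93, 20.34, 17.6 and 18.03 in PLX5622 libraries. The PLX5622 libraries lay below all AF-high and young ones and overlapped AF-low through AF-low 3. The difference was -0.55 ± 0.15 from AF-high (adjusted p = 0.0854) and -0.4 ± 0.17 from young (0.905). Rab6a, its relative, averaged 36.91 ± 6.881 TPM in AF-high and 27.79 ± 0.669 in PLX5622, again with no overlap (-0.38 ± 0.16, adjusted p = 0.267). All PLX5622 libraries of Rab6a (27.07 to 28.65 TPM) lay below all other libraries, as for Rab5c and Rab11b. Its difference from AF-low was -0.51 ± 0.18 (adjusted p = 0.214).

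Rab18, found on the endoplasmic reticulum and lipid droplets, stood at 28.04, 26.72, 23.25, 27.72 and 25.13 TPM in AF-high and at 103, 30.92 and 31.7 in AF-low. AF-low 1 alone was high, while young (35.97 to 37.64) and PLX5622 (26.08 to 30.01) libraries kept close together. The difference of AF-high from AF-low was -0.82 ± 0.28 (adjusted p = 0.479) and, without AF-low 1, -0.25 ± 0.14 (0.802). Rab39, a Golgi and endosomal Rab, held 7.462, 8.744, 14.46, 11.6 and 11.64 TPM in the AF-high libraries, 9.733, 14.82 and 8.074 in AF-low, 14.72, 17.8 and 16.51 in young and 12.16, 14.48, 13.06 and 12.3 in PLX5622 libraries. The young libraries lay above all AF-high ones (-0.59 ± 0.22, adjusted p = 0.34) and overlapped AF-low through AF-low 2. Rab43 averaged 28.81 to 38.01 TPM, but 74.8% of its 31-base stretches occur in Gm45140 transcripts, so its level is uncertain. Rab2b averaged 21.06 to 28.87 TPM, with its PLX5622 libraries (18.42 to 23.23) below its AF-low ones (24.06 to 29.61), and Rab33b averaged 22.27 to 27.25; neither was called in any comparison.

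Among members of regulated secretion, Rab27a, which docks secretory lysosomes and exosome-bearing bodies at the plasma membrane, stood at 15.37, 28.18, 25.38, 30.53 and 25.16 TPM in AF-high and 19.04, 13.35 and 26.64 in AF-low. Young libraries held 33.1, 30.27 and 32.12 TPM and PLX5622 libraries 26.72, 24.22, 25.23 and 26.82. The young libraries lay above all AF-low and PLX5622 ones and overlapped AF-high through AF-high 4. AF-low minus young was -0.72 ± 0.25 (adjusted p = 0.266). Rab3c, a Rab of regulated exocytosis known from neurons, was between 0.07659 and 1.423 TPM in all libraries. It averaged 1.006 ± 0.2988 TPM in PLX5622 and 0.3356 ± 0.36 in young (0.61 ± 0.23, adjusted p = 0.742), with overlap through young 1. Rab3c reached 1 TPM only in AF-high 1 (1.229), AF-high 3 (1.423), PLX5622 1 (1.015) and PLX5622 3 (1.404). It thus entered the test only through groups where it was high, and its differences from young are description alone.

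Of the ciliary and other members, Rab28 averaged 20.54 to 24.37 TPM and Rab40c, a Rab with the SOCS box of ubiquitin ligases, 7.663 to 11.12, with all groups overlapping. Rab28 reached 41.1 TPM in AF-low 1 and 32 in AF-high 3 and was at most 25.53 elsewhere. Rab23, which dampens Hedgehog signalling at the cilium, averaged 2.713 to 4.111 TPM. Rab40b was at 19.52 TPM in AF-high 2 and at 0.1847 to 1.557 in the other AF-high libraries.

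**Figure D4:**
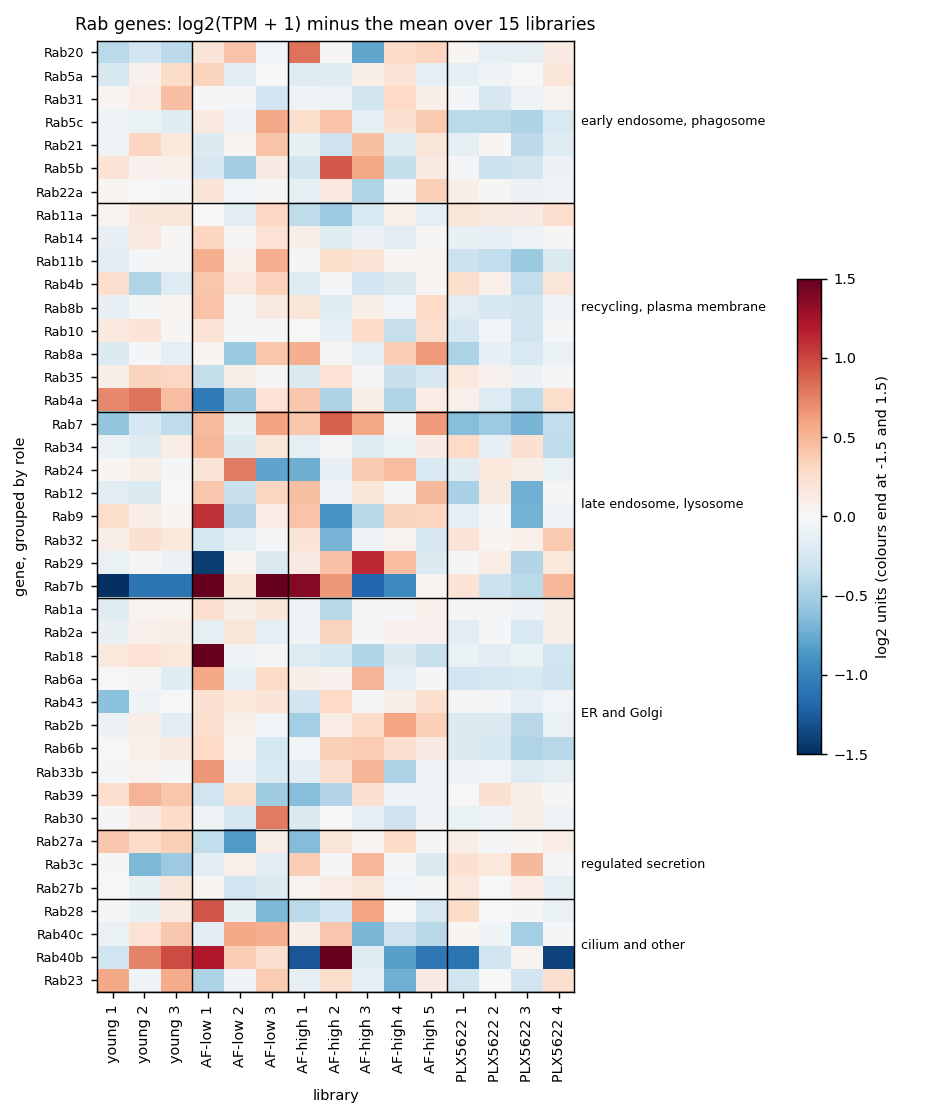
Level of the 41 Rab members in each of the 15 libraries, as log2(TPM + 1) minus the member's mean over the libraries, with members ordered by role. Colours end at -1.5 and 1.5. The median coefficient of variation of TPM over the 39 tested members is 8.68% in young and 9.93% in PLX5622, against 23% in AF-high and 23.7% in AF-low. Rab18 in AF-low 1 and Rab40b in AF-high 2 stand out.

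The spread within a group also differed. The coefficient of variation, the SD as a percentage of the mean, had a median over the 39 tested members of 23% in AF-high and 23.7% in AF-low. It was 8.68% in young and 9.93% in PLX5622, though Rab3c varied by 107% in young. Rab40b varied by 52.7% in young, 92.4% in PLX5622 and 189% in AF-high. Comparisons of AF-high or AF-low with the young or PLX5622 group thus set libraries that scatter more against libraries that scatter less.

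Read across all members, the comparisons showed few that passed the test. Between AF-high and AF-low, 0 of 39 were called, where 0% of all genes were called by limma. At an unadjusted p under 0.05 there were 6 members (15.4%, against 8.21% of all genes), and 3 (7.69%, against 2.76%) had groups that did not overlap, all 3 lower in AF-high (against 1.71% of all genes lower and 1.05% higher): Rab18, Rab4b and Rab1a. Without AF-low 1, the count at an unadjusted p under 0.05 was 1. The median difference was -0.08 over the members and -0.04 over all genes.

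In AF-high against young, 0 of 39 members were called (0% of all genes), 7 had an unadjusted p under 0.05 (17.9%, against 11%), and the groups of 4 (10.3%, against 7.78%) did not overlap. Those were Rab7, higher (2.63% of all genes), and Rab39, Rab4a and Rab18, lower (5.15%). Rab3c was among the 7, though it entered the test only through AF-high and PLX5622 libraries. The unadjusted count was 3 without young 2 and 4 without young 3. The median difference was -0.02, against -0.08 over all genes. In AF-low against young, 0 members were called (0.0455% of all genes), 8 had an unadjusted p under 0.05 (20.5%, against 11.8%), and 11 (28.2%, against 19.3%) did not overlap, 7 higher (8.25% of all genes) and 4 lower (11.1%). The unadjusted count was 5 without AF-low 1 and 5 without AF-low 3. The median difference was 0.12, against -0.04 over all genes.

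In PLX5622 against AF-high, beside the call of Rab7, 8 members had an unadjusted p under 0.05 (20.5%, against 15.3% of all genes). The groups of 6 members did not overlap (15.4%, against 6.55%): Rab7, Rab5c, Rab11b, Rab6b and Rab6a were lower (4.18% of all genes) and Rab11a was higher (2.37%). The unadjusted count was 5 without PLX5622 1. In PLX5622 against AF-low, 8 members had an unadjusted p under 0.05 (20.5%, against 14.3%), all lower, and 10 (25.6%, against 16.2%) did not overlap, 9 lower (10.9% of all genes) and 1 higher (5.31%). Without AF-low 1, or without PLX5622 3, 4 members had an unadjusted p under 0.05. The median differences were -0.07 from AF-high (all genes -0.02) and -0.21 from AF-low (all genes -0.05). In PLX5622 against young, 0 of 39 members were called (0.0911% of all genes), 5 had an unadjusted p under 0.05 (12.8%, against 5.23%), and 14 (35.9%, against 16%) did not overlap, 2 higher (3.28% of all genes) and 12 lower (12.7%). Rab3c was among the 5, though it entered the test only through AF-high and PLX5622 libraries. That unadjusted count was 0 without young 2, 2 without young 1, young 3 or PLX5622 3, and 3 without PLX5622 1, 2 or 4. It was 13 with the 2 groups alone, 14 with array weights and 14 with weights by group. In those settings 59, 420 and 241 of all genes were called, against 12 as reported. The median there was -0.15, against -0.11 over all genes. Once libraries were centred on their median log ratio, these were -0.05 and -0.01. These comparisons share groups, so their counts are not independent of one another.

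**Figure D5:**
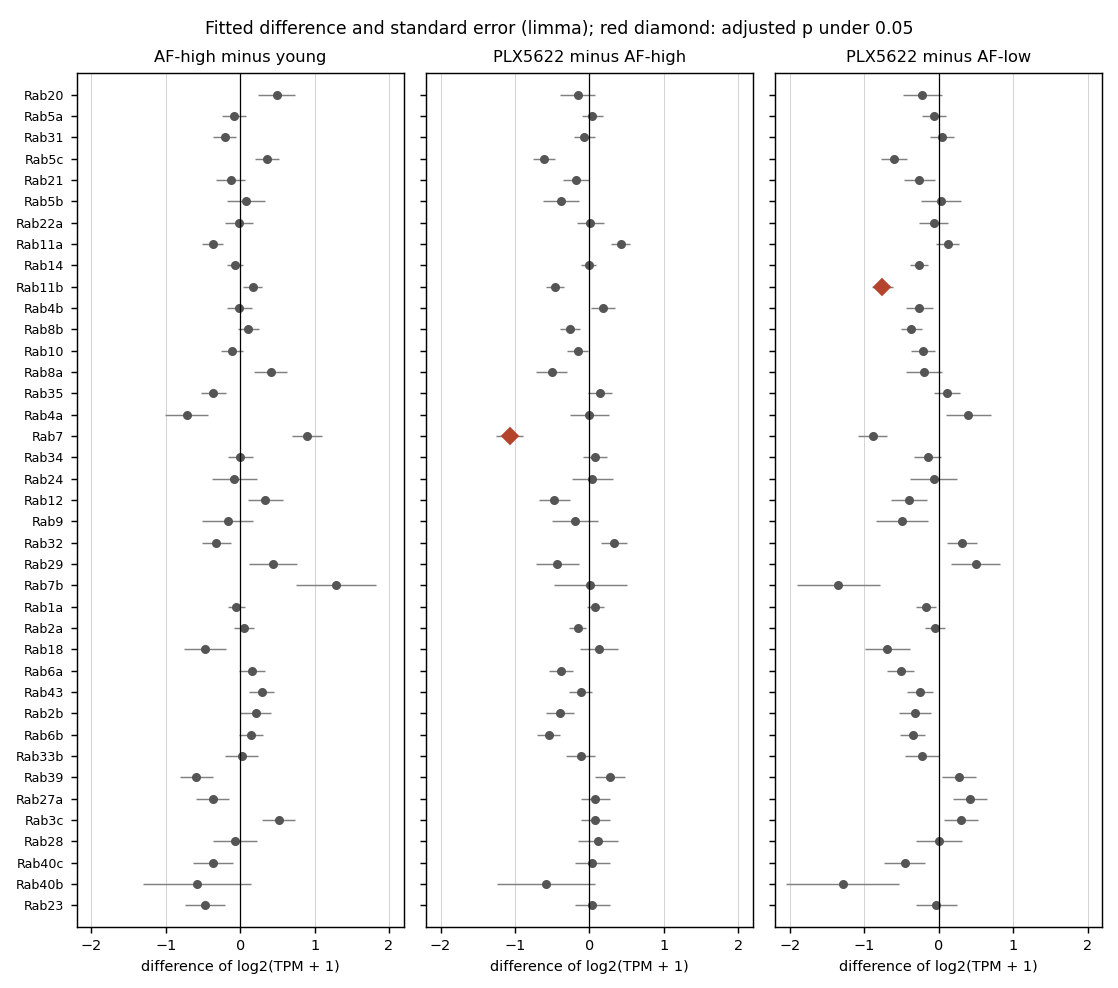
Fitted difference of log2(TPM + 1) with its SE for the 39 tested Rab members in AF-high minus young, PLX5622 minus AF-high and PLX5622 minus AF-low; red diamonds are members with an adjusted p under 0.05. Rab7 at -1.07 in PLX5622 minus AF-high and Rab11b at -0.76 in PLX5622 minus AF-low are the 2 diamonds.

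Genes that act on Rabs were read from a list of 123 regulators and effectors, of which 115 were in the table and 114 were tested. None was called in any of the 6 comparisons (0 of 114 by limma). At an unadjusted p under 0.05 there were 11 in AF-high against AF-low (9.65% of the list), 10 in AF-high against young (8.77%), 12 in AF-low against young (10.5%), 13 in PLX5622 against AF-high (11.4%), 16 in PLX5622 against AF-low (14%) and 4 in PLX5622 against young (3.51%). Those shares can be set beside the 8.21%, 11%, 11.8%, 15.3%, 14.3% and 5.23% of all genes. The median difference in PLX5622 against AF-high was -0.25 over 7 genes of prenylation and GDP dissociation, -0.11 over 32 exchange factors, -0.01 over 29 GTPase activating proteins, -0.04 over 35 effectors, 0.05 over 9 subunits of the CORVET and HOPS tethers and 0.16 over 2 genes of the kinase and phosphatase list, against -0.02 over all genes tested.

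A few of these genes stood closest to the threshold and were chosen for naming after their values were seen. Dennd4b, an exchange factor of Rab10, averaged 92.97 ± 11.71 TPM in AF-high and 54.49 ± 10.07 in PLX5622, without overlap (-0.77 ± 0.17, adjusted p = 0.0541). Without AF-high 1 or without AF-low 1 it passed the test, and its adjusted p ran from 0.0387 to 0.224 over the alternative settings. Mon1b, a subunit of the exchange factor that switches Rab7 on, averaged 14.09 ± 3.306 TPM in AF-high, 12.49 ± 0.9086 in AF-low, 9.32 ± 1.398 in young and 7.765 ± 0.7949 in PLX5622. Its AF-high (10.81 to 18.82) and AF-low libraries (11.65 to 13.46) lay above all young (7.919 to 10.71) and PLX5622 libraries (6.855 to 8.548). PLX5622 minus AF-high was -0.76 ± 0.18 (adjusted p = 0.0617), which passed without AF-high 3, and the adjusted p ran from 0.0172 to 0.23 over the settings. Its partner Ccz1 averaged 55.88 ± 6.354 TPM in AF-high and 49.6 ± 5.698 in PLX5622, with overlap (-0.17 ± 0.12, adjusted p = 0.553). Myo5a, a myosin that moves Rab-bearing vesicles, averaged 16.13 ± 7.989 TPM in AF-high and 35.26 ± 11.69 in PLX5622, with overlap (1.14 ± 0.31, adjusted p = 0.0908).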

How the data were processed

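RNA of sorted mouse microglia was preserved, purified on columns, amplified from low input and sequenced, per the labels' protocols. The deposited table holds TPM by gene symbol, made by the authors with Salmon 1.0.0 on GRCm38 (mm10), with FastQC 0.11.8 and DESeq2 also named in the submitters' processing notes; the transcript index and the filter on genes are not stated in those sources. No value is 0 (0 values), 19 rows carry dates as symbols, and library totals are 956489 to 963145 TPM. TPM keeps no read depth, so no counting interval was computed.

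All 15 libraries entered 1 model of log2(TPM + 1) with limma 3.58.1 in R 4.3.3 (eBayes with trend, 11 residual degrees of freedom, to which the prior added a median of 4.151). The 13175 genes with at least 1 TPM in at least 3 libraries were tested, two-sided, in 6 comparisons, and adjusted p-values are Benjamini-Hochberg over all of them. The fit was run on simulated data in which each gene had the same spread in every group. The groups here differ in spread, so that run does not show how the fit behaves on these data. The members and the lists of roles, regulators and markers were chosen with earlier results of these data known. Named members are those called, the 3 with the smallest p in each comparison and the 2 most abundant of each role; others are named by level. Coordinates are from GENCODE M21 and promoter windows from RefSeq. The alternatives changed the pseudocount, filter, scaling, libraries, weights and replicate block.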

Additional observations from a re-analysis of the deposited data

Results flagged for a closer look

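Rab40b, a Rab with the SOCS box of ubiquitin ligases, stood at 19.52 TPM in AF-high 2, while the other 4 AF-high libraries held 0.1847 to 1.557 TPM. The gap between AF-high 2 and its nearest neighbour was 0.929 of the range of the group. The AF-low libraries held 2.429 to 5.631 TPM, the young ones 1.356 to 4.706 and the PLX5622 ones 0.1046 to 1.992. Mitochondrial genes made up 5.38% of AF-high 2, and their part in this value was not tested. This was 1 of 82 sets of a member in the AF-high or PLX5622 group that were examined, and chance sets apart about 1 group in 20.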

How the results depend on the processing

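Each result was recomputed under 26 alternative settings, 15 of which left out 1 library. Weights by group, and all alternatives for regulators, were chosen after seeing the data. Of 1269 values for 49 gene differences, 1212 kept their direction and their side of the threshold. Another 25 no longer passed, 31 newly passed and 1 reversed. Most of the 49 differences had not passed as reported, so they had no call to lose. All 25 losses fell on the 2 calls. Rab7 in PLX5622 against AF-high lost its call in 7 of 26 settings, and Rab11b in PLX5622 against AF-low in 18 of 26. The reversal was Rab7 in AF-high against AF-low, at -0.04 without AF-low 2 and up to 0.32 with another library left out. The median differences of the members moved by less than the spread of the member median between replicates, 0.165, in every setting. That spread is larger than most of these medians, so the check does not show that they are stable. The median ran from -0.07 to 0.06 in AF-high against young and from -0.01 to 0.17 in AF-low against young. In PLX5622 against AF-low it ran from -0.26 to -0.05.

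In PLX5622 against AF-high (1 member called), 0 members were called with the 2 groups alone, with the replicate block or with young 1 and young 2 left out together, 2 without AF-low 1, AF-high 2 and AF-high 3 or with weights by group, 4 with array weights (Rab7, Rab5c, Rab11b and Rab6b; 3.35% of all genes), and 0 to 2 with 1 library left out (1 to 205 of all genes, against 83 as reported). In PLX5622 against AF-low (1 called), the count was 0 with median centring, quantile normalization, the 2 groups alone, the replicate block, weights by group and both joint omissions, 3 with array weights (0.676% of all genes), and 0 to 3 with 1 library left out (2 to 398 of all genes, against 19). Against young, array weights called 1 member in AF-high, 1 in AF-low and 3 in PLX5622, where 129, 44 and 420 of all genes were called, against 0, 6 and 12 as reported, and leaving out 1 library gave 0 to 1 in AF-high (Rab7, without AF-high 4) and 0 to 3 in AF-low (without AF-low 2). Over all settings, the members at an unadjusted p under 0.05 numbered 1 to 8 in AF-high against AF-low and, in PLX5622, 0 to 14 against young, 5 to 10 against AF-high and 4 to 11 against AF-low; AF-high against young had 1 to 13 and AF-low against young 2 to 10. The cause of these shifts was not tested.

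Of the regulators, the PLX5622 against AF-high comparison called 1 with a 5 TPM filter, median centring or weights by group, 3 without AF-low 1, AF-high 2 and AF-high 3, 5 with array weights and 0 to 1 with 1 library left out. PLX5622 against AF-low called 1 with array weights (Trappc10) and 0 to 1 with 1 library left out (Trappc10 without AF-high 2, Rilpl1 without AF-low 2). PLX5622 against young called 3 with array weights and 1 with weights by group, and AF-low against young 0 to 1 with 1 library left out (Rilpl1, without AF-low 2).

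Under the replicate block, Rab7 in PLX5622 against AF-high was -1.03 (adjusted p = 0.104) and Rab11b in PLX5622 against AF-low -0.77 (0.183). Deviations of AF-low libraries correlated with those of the AF-high libraries of the same number at 0.053, -0.029 and -0.081, so the numbers were not taken to pair samples. This cannot exclude shared mice under other numbers. AF-high 3 correlated at up to 0.123 with an AF-low library of another number, and AF-high 1 at 0.141 with young 1, of another age. Rab3c and Rab4a gave no value with the 5 TPM filter. The number of libraries and the unknown read depth limit the precision of low members such as Rab3c, Rab4a and Rab7b.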
